A study of Mus musculus with 4 samples.

Results

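The E2F family and its DP partners were measured in cultured muscle stem cells (MuSC, satellite cells) of adult mice with and without Prmt5. The members were 10 of the 20065 genes in the deposited table, taken by gene name with earlier results of these data known: E2f1 to E2f8, Tfdp1 and Tfdp2. All 10 were in the table, and all 10 passed the filter on low values. RNA was available from 2 control and 2 Prmt5sKO cultures. Control cells carried Pax7CreERT2/Prmt5+/loxP (+TAM) and are labelled wild type, although they hold the inducible Cre and a loxP allele of Prmt5. Prmt5sKO cells carried Pax7CreERT2/Prmt5loxP/loxP (+TAM). TAM is tamoxifen, and the paper describes the sequenced MuSC as treated with its hydroxy form, which was given to cells in culture. Both groups were C57BL/6, both came from limb and trunk muscles, and in both the Cre is driven from the Pax7 locus, so that recombination is restricted to cells that express Pax7. Prmt5 encodes an arginine methyltransferase that acts on histones, splicing factors and other proteins. The comparison asked which transcripts differed when MuSC had lost it. Labels do not say whether the libraries of a group came from separate animals, but by Xist (below) the 2 of each group differed in sex. The p-values measure only the spread between these libraries.

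E2F proteins bind a short GC-rich element in the promoters of genes needed for DNA replication and cell division. E2F1, E2F2 and E2F3 are classed as activators, E2F4, E2F5 and E2F6 as repressors, and E2F7 and E2F8 as atypical members that repress without a partner. The others bind DNA as dimers with DP1 (Tfdp1) or DP2 (Tfdp2). Pocket proteins (Rb1, p107 and p130) hold the E2F proteins E2F1 to E2F5 in check until cyclin-dependent kinases phosphorylate them, which is how the family ties entry into S phase to growth signals. In MuSC, leaving the cell cycle and starting differentiation depend on this restraint.

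Several E2F genes are themselves textbook targets of E2F, so the promoters of the members were searched for the letters that E2F proteins bind. The 4 forms of the consensus were TTTCCCGC, TTTCGCGC, TTTGCCGC and TTTGGCGC, and the cell cycle genes homology region, an element bound through LIN54 of the MuvB complex, was TTTGAA. Both strands were read, from 250 bases before to 50 bases after each RefSeq start (GRCm38.p6). No form contains another or the homology region. Of 32851 such windows over all genes, 744 (2.26%) held a form of the E2F consensus and 5878 (17.9%) the homology region. The windows covered 8 of the 10 members; E2f4 and E2f5 had none. A form of the consensus lay in a window of 4 of these 8 genes, E2f2, E2f3, E2f7 and Tfdp1, against 704 of 27025 genes (2.61%) overall. In E2f2 the match lay 40 to 47 bases after the first of its 2 starts. The homology region lay in a window of 3 members, E2f2, E2f3 and E2f8, against 5466 of 27025 genes (20.2%) overall. In E2f2 it lay only in the window of the second start, which is 8388 bases inside the gene as GENCODE draws it. The window of E2f1 held neither, but its RefSeq start lies 466 bases inside the gene as GENCODE draws it, so that window does not show what lies upstream of the gene. The same limit holds for Tfdp2, whose windows held neither. Its RefSeq starts lie 62430 and 62973 bases inside the gene. A match in a window is a description of its letters and no evidence of binding in these cells.

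The 250 bases before the start are shown for the 4 members with a match upstream of a start that coincides with the start of the GENCODE gene, from 5′ to 3′ on the strand of the gene, with the matched letters in capitals. E2f7 (chr10:110745189-110745438, plus strand) holds TTTCCCGC on the other strand, at positions -198 to -191, counted from the start. E2f8 (chr7:48881597-48881846, minus strand) holds no form of the consensus, and its capitals mark the homology region on the other strand, at -20 to -15. Tfdp1 (chr8:13338501-13338750, plus strand) holds TTTCGCGC on the other strand, at -43 to -36 from the first of its 2 starts. E2f3 (chr13:29986064-29986313, minus strand) holds both elements, the homology region at -23 to -18 and TTTCCCGC on the other strand at -11 to -4 from the first of its 2 starts.
E2f7: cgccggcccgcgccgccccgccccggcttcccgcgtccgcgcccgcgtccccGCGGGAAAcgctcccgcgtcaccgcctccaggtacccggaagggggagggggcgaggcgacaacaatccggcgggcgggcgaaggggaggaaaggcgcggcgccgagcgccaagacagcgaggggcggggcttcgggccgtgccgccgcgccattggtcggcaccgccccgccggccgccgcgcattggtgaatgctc
E2f8: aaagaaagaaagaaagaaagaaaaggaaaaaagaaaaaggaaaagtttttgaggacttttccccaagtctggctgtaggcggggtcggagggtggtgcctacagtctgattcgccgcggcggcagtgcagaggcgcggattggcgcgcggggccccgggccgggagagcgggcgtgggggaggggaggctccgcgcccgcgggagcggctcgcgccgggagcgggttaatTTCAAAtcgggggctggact
Tfdp1: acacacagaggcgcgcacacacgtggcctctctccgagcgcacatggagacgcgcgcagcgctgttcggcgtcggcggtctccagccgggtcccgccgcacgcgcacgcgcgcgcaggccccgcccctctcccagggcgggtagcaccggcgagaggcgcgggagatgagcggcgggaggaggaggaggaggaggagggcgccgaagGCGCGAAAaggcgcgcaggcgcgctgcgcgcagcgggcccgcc
E2f3: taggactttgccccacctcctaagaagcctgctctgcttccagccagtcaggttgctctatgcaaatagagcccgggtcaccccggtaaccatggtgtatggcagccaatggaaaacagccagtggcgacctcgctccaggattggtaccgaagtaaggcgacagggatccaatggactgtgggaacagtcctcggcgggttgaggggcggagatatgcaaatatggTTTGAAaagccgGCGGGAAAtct

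**Figure D1:**
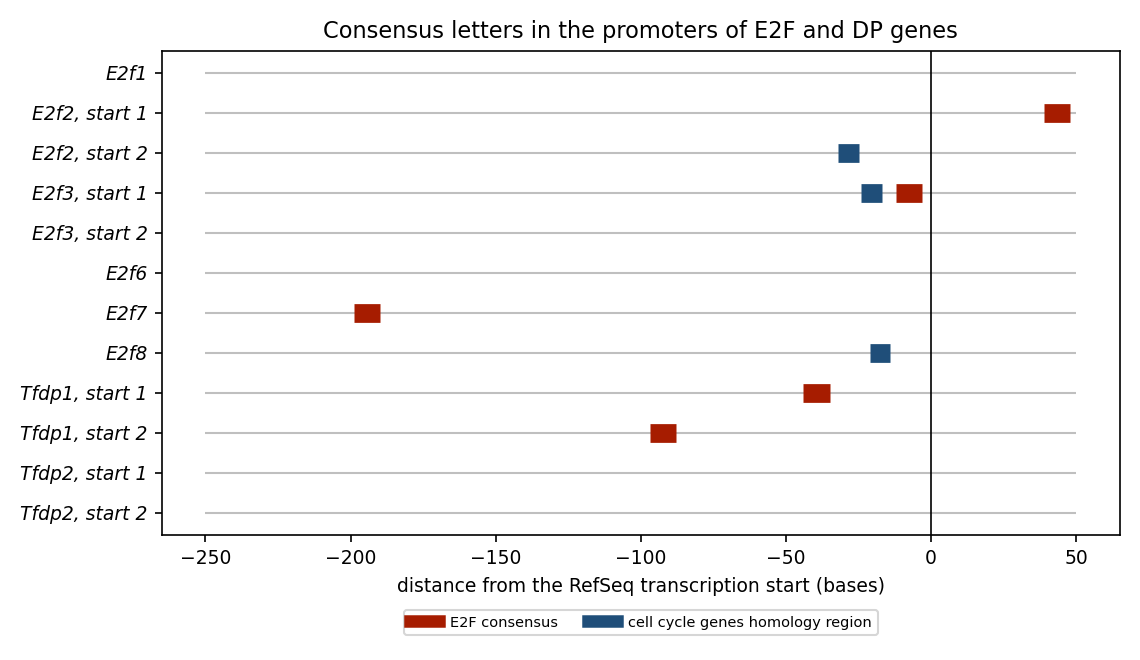
Position of the E2F consensus (red) and of the cell cycle genes homology region (blue) in the RefSeq promoter windows of 8 members, in bases from the transcription start (vertical line at 0); each grey line is 1 window. The consensus lay in windows of E2f2, E2f3, E2f7 and Tfdp1, and the windows of E2f1, E2f6 and Tfdp2 had neither element. Those of E2f1 and Tfdp2 are set by starts inside the gene as GENCODE draws it and do not show what lies upstream of the gene.

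Reads assigned to genes came to 14436914 and 13240754 for control and to 20047430 and 16190414 for Prmt5sKO. The columns of the table carry no replicate numbers, and the libraries of each group are called deeper and shallower here. Values are given in the order deeper, then shallower library of control, against deeper, then shallower library of Prmt5sKO. The targeted gene Prmt5 followed the labels, with 2273 and 2906 normalized counts in control cells and 244 and 202 in Prmt5sKO cells. Of 5 markers of MuSC and myoblasts, 0 passed an unadjusted p of 0.05, and Myod1 and Des, the most abundant, ranged over the 4 libraries from 12153 to 15548 and from 12514 to 32171. Myf5 was lower in both Prmt5sKO libraries, with 1630 and 1772 against 1305 and 1252. Cdh15 ranged from 1467 to 4639, both in Prmt5sKO, and Pax7 overlapped. The 6 markers of muscle differentiation (Myog, Mymk, Myh3, Acta1, Ckm and Tnnt3) were all higher in both Prmt5sKO libraries, against 25.2% of all genes tested. Their summed level was 7873 and 5015 in control against 13272 and 165050 in the deeper and shallower Prmt5sKO library. Myog alone had 1436 and 1189 in control cells and 3707 and 19508 in Prmt5sKO cells. The shallower Prmt5sKO library thus stood apart from the other 3, and the values of members without it are given below. Sums of fibroblast (161 to 391), endothelial (56.3 to 163) and leukocyte markers (58.5 to 112) were low in all libraries, and Tcf21, Ptprc and Cd3e were not in the table. Kdr, Pecam1 and Cd68 were lower in both Prmt5sKO libraries, Tek was higher, and Col1a1, Dcn and Itgam overlapped between the groups. Xist, the transcript of the inactive X chromosome, was high in the deeper control (8668) and shallower Prmt5sKO library (5655) and near 0 in the others (23.3 and 8.15). Xist is transcribed in female cells, so each group held 1 library with female cells and 1 with few or none. The 2 libraries of a group were therefore not repeats of the same RNA and did not come from the same animal or pool. Whether each came from 1 animal or a pool is not given in the sources used here.

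The members that stood lower in Prmt5sKO were E2f7, E2f1, E2f8 and Tfdp1, and the other 6 lay within the spread of the libraries or close to it. None of the 10 passed an adjusted p of 0.05 with a fold of at least 2 (limma-voom with Benjamini-Hochberg adjustment over all 16212 genes tested). Of all 16212 genes, 0 passed (0.0%), and the smallest adjusted p of any gene in limma-voom was 0.193. That gene was Prmt5 itself, at a log2 fold change of -3.52, so the threshold did not call even the targeted gene. Without adjustment, 2101 genes had a p under 0.05, and by limma-trend the number past the threshold was also 0. Leaving out the deeper Prmt5sKO library gave 489 genes and leaving out the shallower 55, in fits where the lone library is assumed to vary like those of the other group. The columns do not show which libraries pair. With the deeper library of each group paired with the shallower of the other as a replicate block, 346 genes passed, among them E2f7 and E2f8 (adjusted p of 0.0269 and 0.0459 in limma-voom), and with the deeper libraries paired 0 did. The former pairing also joins the Xist-high libraries and the Xist-low libraries. Of the members, 4 were lower and 0 higher at an unadjusted p under 0.05, where 6.95% of all genes tested were lower and 6.01% higher. Both Prmt5sKO libraries lay below both control libraries in 5 members, the same 4 and E2f3, against 23.6% of all genes tested, and above them in 0, against 25.2%. The median log2 fold change of the 10 members was -0.26, against 0.02 for all genes. With 1 library left out it was -0.49 (deeper control), -0.32 (shallower control), -0.17 (deeper Prmt5sKO) or -0.40 (shallower Prmt5sKO), and with scaling by library size alone -0.14. In RNA from a whole culture, fewer cells in a phase of the cycle and less RNA per cell cannot be told apart.

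**Figure D2:**
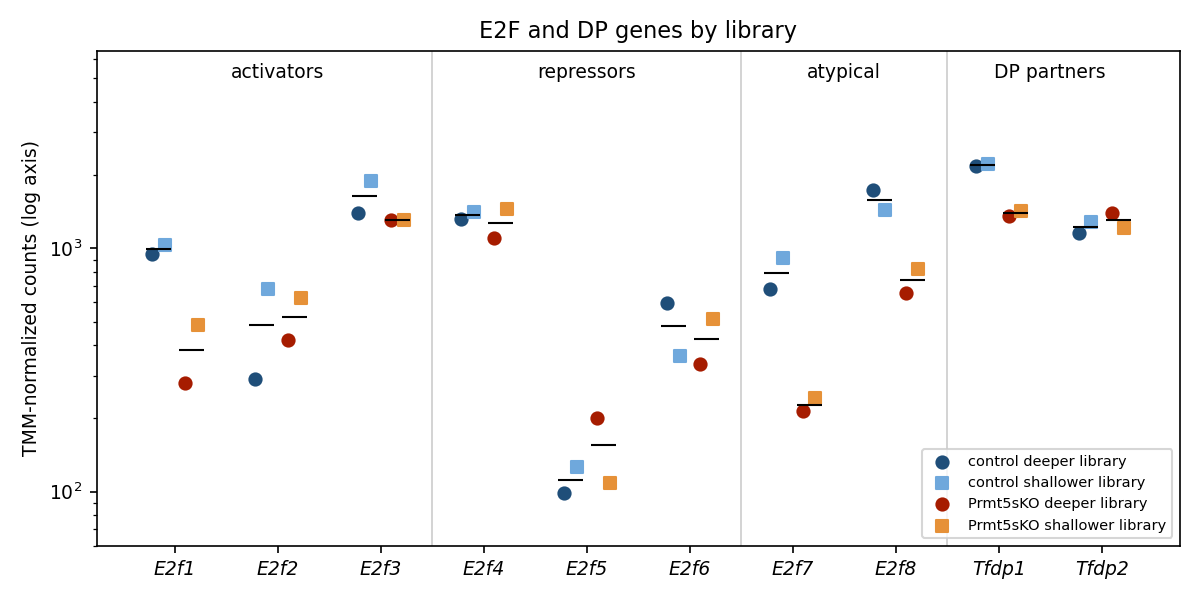
TMM-normalized counts (log axis) of the 10 members in each library, control in blue and Prmt5sKO in red and orange, with circles for the deeper and squares for the shallower library and a bar for each group mean (n = 2). The groups are apart in E2f1, E2f3, E2f7, E2f8 and Tfdp1 and overlap in the other 5.

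The atypical members E2f7 and E2f8 were both lower in Prmt5sKO. Their proteins form homodimers or heterodimers with each other, need no DP partner and repress E2F targets, E2f1 among them, late in S phase. E2f7 (ENSMUSG00000020185, chromosome 10, 110745439 to 110787384, plus strand, GRCm38) had 679 and 913 normalized counts in control cells and 214 and 242 in Prmt5sKO cells. The Prmt5sKO values lay close together, and both were far below either control value. The means were 796 ± 165 and 228 ± 20.0 (SD, n = 2 each). This is 3.46-fold lower in the fit, a log2 fold change of -1.79 (standard error 0.28, 95% interval -2.48 to -1.11, adjusted p = 0.203 in limma-voom). Among the 16212 genes, its fold change was at rank 454 from the lowest and its p at rank 51 from the smallest.

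E2f8 (ENSMUSG00000046179, chromosome 7, 48866429 to 48881596, minus strand) was the more abundant atypical gene, with 1731 and 1441 normalized counts in control and 656 and 826 in Prmt5sKO. The groups did not overlap, with means of 1586 ± 205 and 741 ± 120 (SD, n = 2 each). The log2 fold change was -1.11 (standard error 0.23, 95% interval -1.67 to -0.54, adjusted p = 0.236 in limma-voom), or 2.16-fold lower. Its exons share 610 bases with Gm2788 on the opposite strand, and E2f7 shares 86 with 1700020G17Rik, which is not in the table. Gm2788 had 4.02 to 15.6 normalized counts over the 4 libraries, little beside those of E2f8. Whether reads were counted by strand is not given in the sources used here. Without the shallower Prmt5sKO library the log2 fold changes of E2f7 and E2f8 were -1.87 and -1.27, as large as with it.

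The activators differed among themselves. E2f1 (ENSMUSG00000027490, chromosome 2, 154559407 to 154569892, minus strand), the founding member and an inducer of both S phase and cell death, had 946 and 1036 normalized counts in control and 280 and 483 in Prmt5sKO. The control values were close together, and the Prmt5sKO values, both lower, differed from each other 1.72-fold. The log2 fold change was -1.46 (standard error 0.31, 95% interval -2.20 to -0.71, adjusted p = 0.236 in limma-voom), or 2.75-fold lower. Leaving out the shallower Prmt5sKO library moved it to -1.82, and leaving out the deeper to -1.03. The library that stood apart in differentiation markers was thus the one with more E2f1, and the part of that difference in the result was not tested.

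E2f3 (ENSMUSG00000016477, chromosome 13, 29906575 to 29986063, minus strand), an activator whose 2 promoters give a longer and a shorter protein, had 1401 and 1886 normalized counts in control and 1305 and 1311 in Prmt5sKO. The groups were apart, but the lower control value was close to both Prmt5sKO values. Its log2 fold change was -0.31 (95% interval -0.87 to 0.24, adjusted p = 0.573 in limma-voom). It was -0.54 without the deeper and -0.091 without the shallower control library, and -0.31 without either Prmt5sKO library. E2f2 (ENSMUSG00000018983, chromosome 4, 136172394 to 136196057, plus strand), the activator known best from blood cells, had 289 and 681 in control cells and 422 and 627 in Prmt5sKO cells. The 2 control libraries differed 2.35-fold, the widest spread of any member, and enclosed both Prmt5sKO values. Its log2 fold change of 0.22 had a 95% interval from -0.86 to 1.29, and turned to -0.43 without the deeper control library and -0.05 without the shallower Prmt5sKO library. The interval of E2f2 thus holds a level 2-fold higher as well as no difference.

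The repressors overlapped between the groups in all 3 cases. E2f4 (ENSMUSG00000014859, chromosome 8, 105297663 to 105305370, plus strand), the main E2F of resting cells and of the DREAM complex, had 1324 and 1419 normalized counts in control and 1102 and 1448 in Prmt5sKO. Its log2 fold change of -0.12 had a 95% interval from -0.67 to 0.43, so that a change of over 2-fold lies outside the interval. E2f5 (ENSMUSG00000027552, chromosome 3, 14578641 to 14606309, plus strand), which pairs with p130 as E2F4 does, was the least abundant member, with 98.3 and 126 in control cells and 202 and 109 in Prmt5sKO cells. It rests on 87 to 272 reads, and the higher value came from the deeper Prmt5sKO library alone. Its log2 fold change was 0.47 (95% interval -0.66 to 1.59). Its exons share 26 bases with 1810022K09Rik on the opposite strand. E2f6 (ENSMUSG00000057469, chromosome 12, 16810963 to 16839742, plus strand), which represses through Polycomb proteins and without pocket proteins, had 599 and 361 in control cells and 336 and 511 in Prmt5sKO cells. Here the values crossed, high and low in each group, with a log2 fold change of -0.20 (95% interval -1.07 to 0.67). Without the deeper Prmt5sKO library the sign turned for E2f4 (0.08), E2f5 (-0.03) and E2f6 (0.12), and without the deeper control library for E2f6 (0.17). Without the shallower Prmt5sKO library the log2 fold changes were -0.31 for E2f4, 0.86 for E2f5 and -0.48 for E2f6, each further from 0 than with it.

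Of the DP partners, Tfdp1 was lower and Tfdp2 was not. Tfdp1 (ENSMUSG00000038482, chromosome 8, 13338751 to 13378448, plus strand) encodes DP1, the partner of most E2F dimers. It had 2188 and 2227 normalized counts in control and 1355 and 1431 in Prmt5sKO. The libraries of a group differed by at most 1.06-fold, and the groups were far apart by comparison. The log2 fold change was -0.66 (standard error 0.19, 95% interval -1.13 to -0.19, adjusted p = 0.295 in limma-voom), or 1.59-fold lower. Without the deeper or the shallower control library, it was -0.69 and -0.64, with unadjusted p of 0.0821 and 0.0991, and without the shallower Prmt5sKO library -0.70. Tfdp2 (ENSMUSG00000032411, chromosome 9, 96196275 to 96323646, plus strand), which encodes DP2, had 1157 and 1287 in control cells and 1403 and 1209 in Prmt5sKO cells. These overlapped, with a log2 fold change of 0.10 (95% interval -0.41 to 0.61), which turned to -0.01 without the deeper Prmt5sKO library and was 0.20 without the shallower.

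**Figure D3:**
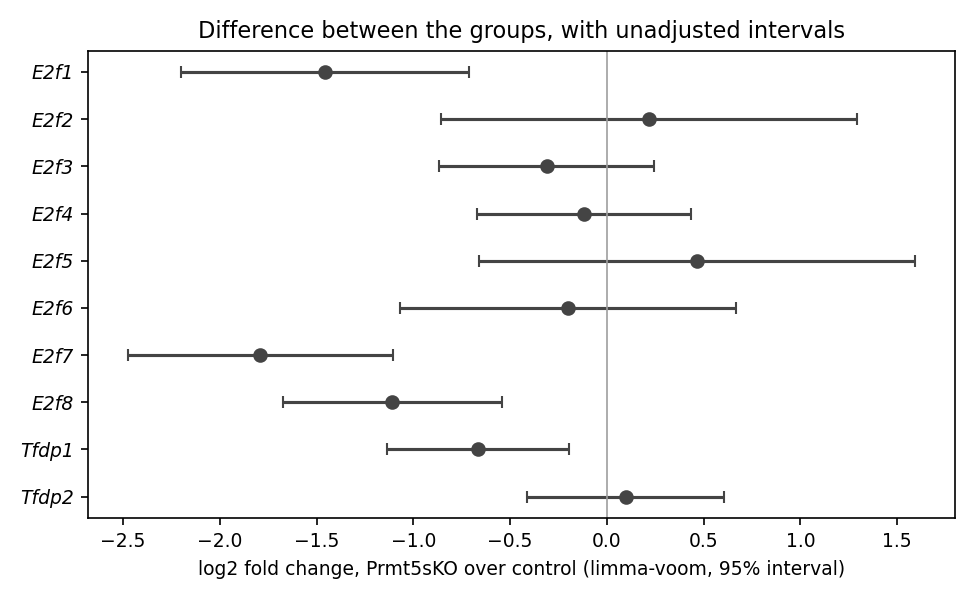
Log2 fold change of each member, Prmt5sKO over control (point), with its unadjusted 95% interval from limma-voom (bar); values left of the vertical line at 0 are lower in Prmt5sKO. The intervals of E2f1, E2f7, E2f8 and Tfdp1 lie below 0, and those of the other 6 include it.

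To compare levels between genes, normalized counts were divided by the length of the merged exons. In control, Tfdp1 was highest with 601 ± 7.50 normalized counts per kilobase (SD, n = 2), then E2f4 with 559 ± 27.2, E2f1 with 314 ± 20.3, E2f3 with 303 ± 63.1 and E2f8 with 291 ± 37.7. The others followed with 99.4 ± 56.7 for E2f2, 88.4 ± 18.4 for E2f7, 87.1 ± 6.52 for Tfdp2, 84.7 ± 29.8 for E2f6 and 62.9 ± 10.9 for E2f5. Neighbours in this order did not overlap only at the steps from Tfdp1 to E2f4, from E2f4 to E2f1 and from E2f8 to E2f2. In Prmt5sKO, E2f4 was highest with 520 ± 99.7 normalized counts per kilobase, followed by Tfdp1 with 380 ± 14.6, E2f3 with 241 ± 0.773, E2f8 with 136 ± 22.0 and E2f1 with 121 ± 45.4. After these came E2f2 (107 ± 29.7), Tfdp2 (93.1 ± 9.80), E2f5 (87.0 ± 36.9), E2f6 (74.8 ± 21.8) and E2f7 (25.3 ± 2.22). Steps without overlap were those from E2f4 to Tfdp1, from Tfdp1 to E2f3, from E2f3 to E2f8 and from E2f6 to E2f7. Thus, per kilobase, E2f4 and Tfdp1 were the highest members in both groups, in opposite order, and E2f7 moved from rank 7 to rank 10. This order depends on the division by length. Without it Tfdp1 had the highest mean and E2f5 the lowest in both groups. E2f3 (1643) and E2f8 (1586) then lay above E2f4 (1372) in control. In Prmt5sKO, Tfdp1 (1393), E2f3 (1308) and Tfdp2 (1306) lay above E2f4 (1275).

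The make-up of the E2F pool followed from these levels and is given as a description without a test. The summed level of E2f1 to E2f8 was 1712 and 1894 normalized counts per kilobase in control and 1182 and 1443 in Prmt5sKO. Atypical members made up 23.0% and 19.3% of it in control and 12.2% and 12.4% in Prmt5sKO, with means of 21.2% ± 2.59 and 12.3% ± 0.114 (SD, n = 2 each). Repressors made up 41.0% and 37.6% against 52.6% and 51.4%, with means of 39.3% ± 2.35 and 52.0% ± 0.872. Their summed level was 701 and 713 in control cells and 622 and 742 in Prmt5sKO cells, so their larger share went with a smaller pool. The activator share overlapped, with 36.1% and 43.0% against 35.2% and 36.2%. The sum over both DP genes was 679 and 698 in control cells and 469 and 476 in Prmt5sKO cells.

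**Figure D4:**
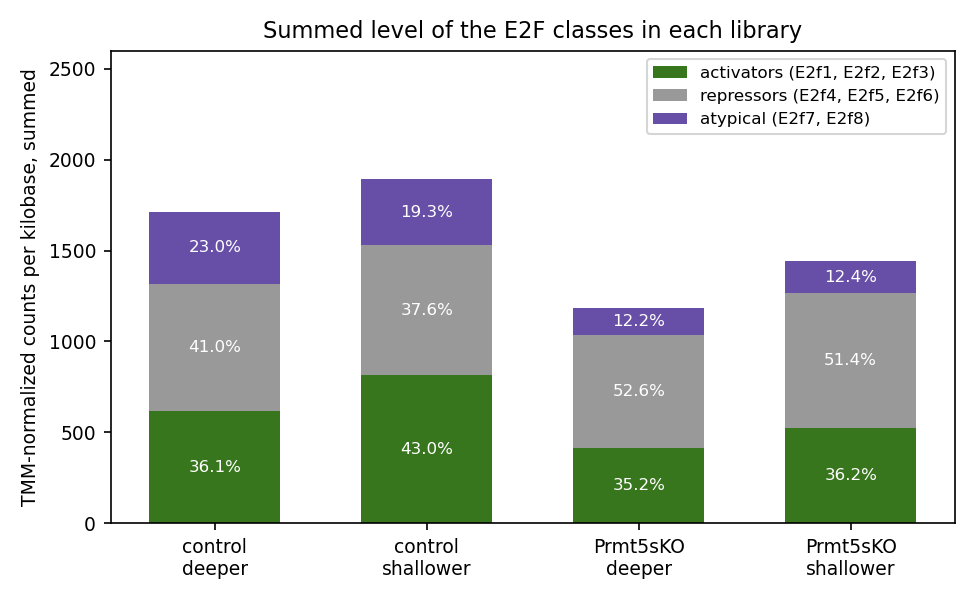
Summed level of activators (green), repressors (grey) and atypical members (purple) in each library, in TMM-normalized counts per kilobase of merged exons, with the share of each class in the bar. The atypical share is 19.3% to 23.0% in control and 12.2% to 12.4% in Prmt5sKO.

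Ratios within a library do not depend on the scaling between libraries; the pairs were chosen after the values were seen. On the per kilobase scale, E2f1 over E2f4 was 0.555 and 0.568 in control cells and 0.197 and 0.259 in Prmt5sKO cells. E2f7 over E2f4 was 0.140 and 0.175 in control cells and 0.0529 and 0.0456 in Prmt5sKO cells, and E2f8 over E2f4 was 0.589 and 0.457 in control cells and 0.268 and 0.257 in Prmt5sKO cells. In each of these ratios E2f1 or an atypical member was lower relative to E2f4, the most abundant repressor, in both Prmt5sKO libraries. Tfdp1 over Tfdp2 was 7.23 and 6.62 in control cells and 3.69 and 4.53 in Prmt5sKO cells. Merged exons span 3670 bases in Tfdp1 and 14029 in Tfdp2, so the size of this ratio depends on the division by length. Before division, control cells had 2188 and 2227 normalized counts of Tfdp1 and 1157 and 1287 of Tfdp2. Prmt5sKO cells had 1355 and 1431 of Tfdp1 and 1403 and 1209 of Tfdp2. The separation of the groups in this ratio does not depend on length. By contrast, E2f3 over E2f4 (0.478 and 0.600 against 0.535 and 0.409) and E2f2 over E2f4 (0.110 and 0.241 against 0.192 and 0.217) overlapped. So did E2f8 over E2f1, with 1.06 and 0.806 in control cells and 1.36 and 0.991 in Prmt5sKO cells, and E2f7 over E2f1, with 0.251 and 0.308 in control cells and 0.268 and 0.176 in Prmt5sKO cells.

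The pocket proteins, which bind the members directly, did not move together. Rb1, the retinoblastoma protein that restrains the activators, had 446 and 502 normalized counts in control and 1118 and 1423 in Prmt5sKO. Rbl1, which encodes p107 and is itself an E2F target, went the other way, with 797 and 957 in control cells and 520 and 391 in Prmt5sKO cells. Rbl2, which encodes p130 of resting cells, had 319 and 254 in control cells and 581 and 470 in Prmt5sKO cells. All 3 were apart between the groups, 2 higher and 1 lower in Prmt5sKO, against 25.2% and 23.6% of all genes tested. Log2 fold changes were 1.41 for Rb1, -0.94 for Rbl1 and 0.88 for Rbl2 (adjusted p of 0.208, 0.276 and 0.319 in limma-voom). Without the deeper Prmt5sKO library, which leaves the library that stood apart in differentiation markers, Rb1 was at 1.59. Without the shallower it was at 1.24. At an unadjusted p under 0.05 these counts of 2 higher and 1 lower fell to 1 and 1 without the deeper control or the deeper Prmt5sKO library, and to 1 and 0 without the shallower control library. Per kilobase, Rbl1 over Rbl2 was 3.15 and 4.75 in control cells and 1.13 and 1.05 in Prmt5sKO cells, and Rb1 over E2f1 was 0.247 and 0.254 in control cells and 2.09 and 1.55 in Prmt5sKO cells. A higher Rb1 and a lower E2f1 therefore occurred in the same libraries.

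The MuvB core, which joins E2F4, DP1 and p130 or p107 to form the repressive DREAM complex, had 2 of 5 genes lower and 0 higher at an unadjusted p under 0.05, with a median log2 fold change of -0.19. At that p 6.95% of all genes tested were lower and 6.01% higher. The 2 lower genes were Lin9 (389 and 451 normalized counts against 261 and 247, log2 fold change -0.71) and Lin54 (555 and 661 against 430 and 331, -0.66). Lin52 was at 0.71 and Rbbp4 at -0.19, neither with an unadjusted p under 0.05. Over the 12 alternatives Lin9 ranged from -0.84 to -0.60, with an unadjusted p under 0.05 in 6. Lin54 ranged from -0.87 to -0.49, with such a p in 7. Without the shallower Prmt5sKO library Lin9 was at -0.68, Lin54 at -0.49 and Rbbp4 at -0.58. Scaling by library size alone or pairing the deeper libraries left 0 of the 5 lower at an unadjusted p under 0.05. Under that pairing as a replicate block, the p of Lin9 was 0.0667 and that of Lin54 0.0780. Both activators that bind MuvB later in the cycle were lower. Mybl2, an E2F target that encodes B-MYB, had 1503 and 1637 normalized counts in control and 265 and 318 in Prmt5sKO, a log2 fold change of -2.45 (adjusted p = 0.198 in limma-voom). Without the deeper or the shallower Prmt5sKO library Mybl2 passed, at -2.30 and -2.57 (adjusted p of 0.00801 and 0.0345 in limma-voom). Foxm1, which drives genes of G2 and mitosis, had 1903 and 2318 in control cells and 848 and 989 in Prmt5sKO cells, a log2 fold change of -1.20 (adjusted p = 0.218 in limma-voom).

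Of the 10 partners of E2F6 in its Polycomb complex, 1 was lower and 0 higher at an unadjusted p under 0.05, a share near the 6.95% of all genes. This was Wdr5, at a log2 fold change of -0.84, and Ring1 (0.57), Cbx3 (-0.41) and L3mbtl2 (-0.42) followed. Without the shallower Prmt5sKO library these counts were 0 lower and 2 higher, and without the shallower control library 0 and 0. Apart from Stag3, germline genes that E2F6 keeps silent were at or near the floor or not in the table. Of 5, 4 were in the table and only Stag3 passed the filter, with 59.9 and 63.5 normalized counts in control and 80.8 and 27.2 in Prmt5sKO. The level of Stag3 overlapped between the groups, and the fold change of its fit was -0.31, or 0.38 without the shallower Prmt5sKO library.

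Among factors that mark E2F proteins for degradation, 3 of 4 were lower and 0 higher at an unadjusted p under 0.05, with a median log2 fold change of -0.69. At that p 6.95% of all genes tested were lower and 6.01% higher. Skp2, an F-box protein that recognizes E2F1, had 1154 and 1797 normalized counts in control and 622 and 640 in Prmt5sKO (log2 fold change -1.19). Ccnf (cyclin F) was at -0.80 and Cdc20, which recruits substrates to the anaphase-promoting complex, at -0.57. Fzr1, which does the same in G1, was at -0.38 with both Prmt5sKO libraries lower. Without the shallower control library 1 of the 4 was lower at an unadjusted p under 0.05. With the deeper libraries paired it was 2, Cdc20 then having a p of 0.0563. Among 11 cyclins, kinases and inhibitors that act on the pocket proteins, 3 were lower and 1 higher at an unadjusted p under 0.05. Cdk6, a kinase that starts the phosphorylation of Rb, was at -1.33, and the E-type cyclins Ccne1 and Ccne2, both E2F targets, were at -1.30 and -1.03. Ccne1 had 1355 and 1130 normalized counts in control and 322 and 830 in Prmt5sKO. Its log2 fold change was -1.94 without the shallower Prmt5sKO library, -0.58 without the deeper Prmt5sKO library and -1.17 without the deeper control library, the last 2 with unadjusted p of 0.0593 and 0.0866 in limma-voom. For Ccne2 this p was 0.0682 in limma-voom without the shallower control library. Cdkn1a, which encodes the kinase inhibitor p21, was the higher one, at 2.13 (adjusted p = 0.214 in limma-voom). Without the shallower Prmt5sKO library 7 of the 11 were lower and 1 higher, without the deeper 2 and 3, and without the deeper control library 2 and 2. With the deeper library of each group paired with the shallower of the other, 4 were lower and 2 higher. Cdkn1a had 3379 and 2057 normalized counts in control and 8358 and 15703 in Prmt5sKO. Its log2 fold change was 2.57 without the deeper Prmt5sKO library, a fit that rests on the library that stood apart in differentiation markers.

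The E2F target genes of G1/S and replication were lower almost without exception. Of 38 genes in this list, 35 were lower and 0 higher at an unadjusted p under 0.05, against 6.95% and 6.01% of all genes tested. Both Prmt5sKO libraries lay below both control libraries in 37, against 23.6% of all genes tested. The median log2 fold change was -1.18 and the range -2.23 to -0.43. Their summed level was 87520 and 103978 normalized counts in control and 43428 and 47829 in Prmt5sKO. Cdt1, which loads the MCM helicase onto origins, had 648 and 944 normalized counts in control and 170 and 160 in Prmt5sKO (log2 fold change -2.23). Cdc6, its partner in loading, had 1167 and 1477 in control cells and 296 and 404 in Prmt5sKO cells (-1.94). The helicase subunits Mcm3 and Mcm5 were at -1.45 and -1.31. In all 4 genes the lower control value was over 2-fold above the higher Prmt5sKO value. The exception was Pcna, the sliding clamp, with 2592 and 2555 normalized counts in control and 2638 and 1377 in Prmt5sKO, where the deeper Prmt5sKO library was as high as the controls. The smallest adjusted p of the list was 0.198 in limma-voom. Without the deeper Prmt5sKO library Cdt1 was at -2.28, Cdc6 at -1.70, Mcm3 at -1.38 and Mcm5 at -1.28. That fit rests on the library that stood apart in differentiation markers. Without the shallower Prmt5sKO library Cdc6 was at -2.15. Without the shallower Prmt5sKO library the number of the list lower at an unadjusted p under 0.05 was again 35, as without the deeper Prmt5sKO library. It was 32 without the deeper and 28 without the shallower control library.

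Genes tied to E2F1 and to the atypical members outside the cell cycle showed no such pattern. Of 7 cell death genes, 6 were tested and 0 passed an unadjusted p of 0.05 in either direction. The median log2 fold change of these was 0.14, or -0.12 without the shallower Prmt5sKO library. Leaving out either Prmt5sKO library put 1 of the 6 higher at that p. Apaf1, which forms the apoptosome, had 923 and 844 normalized counts in control and 1492 and 973 in Prmt5sKO. For Vegfa and Hif1a, which E2F7 and E2F8 are known to act on and with, the log2 fold changes were 0.05 and -0.07, and the groups overlapped in both genes.

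**Figure D5:**
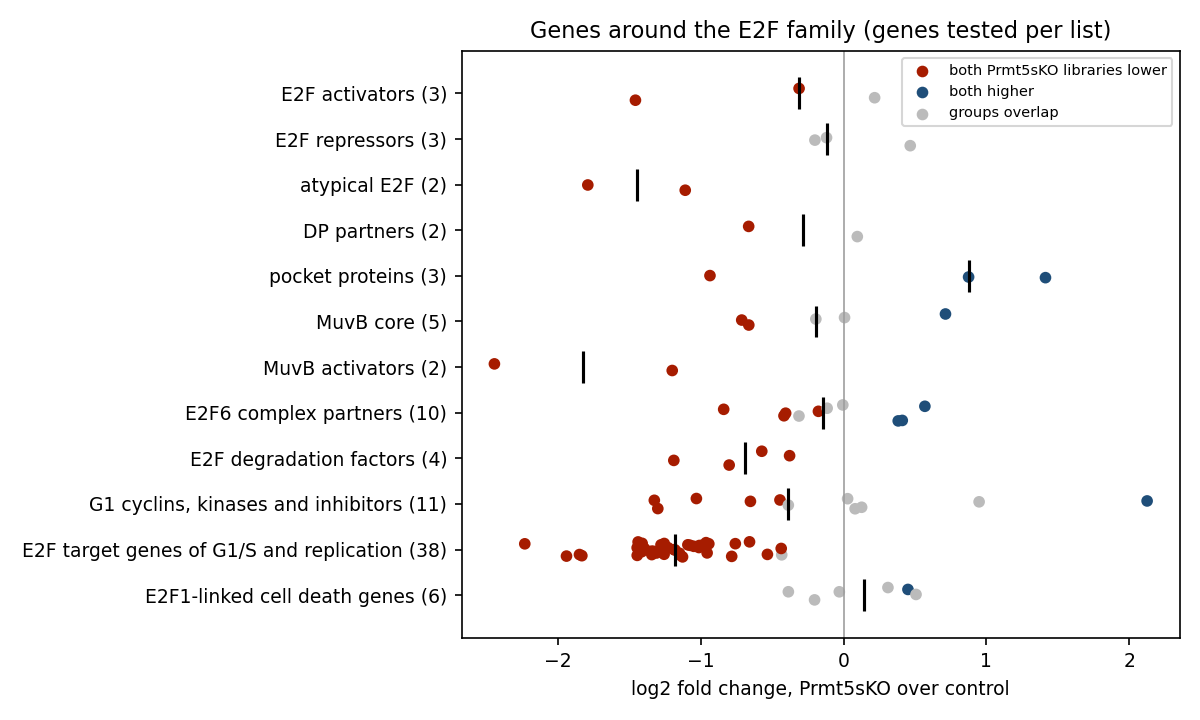
Log2 fold change, Prmt5sKO over control, of each gene tested in the lists around the E2F family (point, with the number of genes tested in brackets) and the median of each list (black bar). Red points have both Prmt5sKO libraries below both control libraries, blue points above, and grey points overlap; 37 of 38 E2F target genes are red, and all 3 repressors are grey.

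The consensus letters were also set against the fold changes over all genes, as a description. Of the genes tested that have a RefSeq window, 501 held a form of the E2F consensus and 10648 did not. Both Prmt5sKO libraries were lower in 39.9% of the former and 22.8% of the latter, and higher in 16.4% and 27.4%. Their median log2 fold changes were -0.17 and 0.06. In the target list, 14 of the 31 genes with a window (45.2%) held the consensus. Target genes with it had a median of -1.32 with 14 of 14 lower in both libraries, and those without it a median of -1.15 with 16 of 17. Within the members, consensus and level did not go together in any simple way. E2f7, Tfdp1 and E2f3 held it and were lower in both Prmt5sKO libraries, E2f2 held it and overlapped, and E2f8, also lower, held only the homology region.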

How the data were processed

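Total RNA of cultured MuSC was depleted of ribosomal RNA and sequenced on an Ion Torrent instrument. The authors aligned the reads to GRCm38 (mm10) with STAR 2.4.0a and compared the groups with DESeq2 (listed as version 1.62), per the submitters' processing notes. The signal values deposited by the authors are means of size-factor-normalized counts over the 2 libraries of each group. Deposited columns of fold changes and p-values were not used. Each library adds to such a mean in steps of its own, 1 step per read, and solving for both step sizes gave back whole counts per library for 100% of 20065 genes (largest relative residual 5.091e-15). Recovery was exact for 20065 of 20065 genes in simulated means. TMM factors (trims of 30% and 5%) scaled the libraries. Limma-voom (limma 3.58.1, R 4.3.3) then tested Prmt5sKO against control in every gene whose normalized counts averaged 5 or more. In simulated counts with 200 changed genes, limma-voom recovered 200 of 200, with 3 and 16 false calls among 16191 and 16216 genes at dispersions of 0.01 and 0.03, which checks the code only. Symbols and exon lengths came from GENCODE M21, which held 19782 of the 20065 identifiers.

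Members and lists were chosen with earlier results of these data known. Genes named are all members, the pocket proteins and Prmt5 and, of each other list, the up to 4 with the smallest unadjusted p, or, where none passed 0.05, the 2 with the highest mean. Pcna, the markers other than these and the genes that share exons were named after their values were seen. Alternatives were the authors' size factors, upper-quartile normalization, library size only, no filter, a mean of at least 50, limma-trend, both pairings of libraries and each library left out. A planned comparison of protein sequences was not made, and the values of 1 gene that this rule named are not reported here.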

Additional observations from a re-analysis of the deposited data

How the results depend on the processing

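E2f1, E2f7 and E2f8 kept their direction and an unadjusted p under 0.05 in all 12 alternatives, with log2 fold changes of -1.82 to -1.03, -2.02 to -1.57 and -1.27 to -0.94, and Tfdp1 in 10 of 12, at -0.70 to -0.56. Adjusted p in limma ranged from 0.0503 to 0.968 for E2f1, 0.0269 to 0.968 for E2f7, 0.0459 to 0.968 for E2f8 and 0.137 to 0.968 for Tfdp1. E2f3 kept its sign in all 12, at -0.54 to -0.091. Scaling by library size alone moved the all-gene median from 0.02 to 0.13, that of the members to -0.14 and that of the E2F targets to -1.07, and put Hif1a at 0.040. Without division by length the shares in control and Prmt5sKO were 26.4% and 36.8% for repressors, 32.0% and 19.2% for atypical members and 41.6% and 44.0% for activators, which were then the largest class in both groups, where per kilobase they made up 39.6% and 35.7%. With 1 library left out in turn, where the lone library is assumed to vary like the others, 0 to 489 genes passed, and the member median lay between -0.49 and -0.17. The log2 fold changes then ranged from -0.43 to 0.82 for E2f2, from -0.31 to 0.080 for E2f4, from -0.026 to 0.86 for E2f5, from -0.54 to 0.17 for E2f6 and from -0.012 to 0.20 for Tfdp2, so that each of these turned in sign. Among other named genes the sign turned for Rbbp4 (-0.58 to 0.18), Stag3 (-1.17 to 0.38), Vegfa (-0.40 to 0.51) and Hif1a (-0.30 to 0.17). The cause of these moves was not tested.

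Since no column names a replicate, both possible pairings were run as a replicate block. With the deeper libraries paired, 0 genes passed. With the deeper library of each group paired with the shallower of the other, 346 passed, among them E2f7 (-1.81, adjusted p = 0.0269 in limma-voom) and E2f8 (-1.10, adjusted p = 0.0459 in limma-voom) but not E2f1 (adjusted p = 0.0503 in limma-voom). Of the other named genes, Rb1, Mybl2, Foxm1, Cdkn1a, Cdk6, Cdc6, Mcm3, Cdt1, Mcm5 and Prmt5 also passed under it. Deviations within the groups correlated at 0.30 across 11487 genes under this pairing and at -0.30 under the other. The pairing with 0.30 also joins the Xist-high libraries and the Xist-low libraries. The libraries share no replicate number that would show which were handled as a pair. Of the members and other named genes, the block with the deeper libraries paired ended an unadjusted p under 0.05 in Lin9, Lin54 and Cdc20 only. Counting error touches E2f5 most, at 87 to 272 reads.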
